A study of Mus musculus with 30 samples.

Results

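The 3 fibrinogen chain genes Fga, Fgb and Fgg and the acute phase genes Lcn2, Saa3, Hp and Orm1 were followed across 28 RNA-seq libraries of mouse thyroid, as 7 of 33924 genes in a table of read counts. They were picked by name, and Fgg was chosen by its large rise with Arid1a loss. The contrasts with Arid1a loss that picked it, Braf Arid1a KO against Braf under vehicle and Arid1a KO against wild type, are therefore given below as a description, with no test. Of the 7 genes, 6 passed the filter on low counts and Fga did not. Fgb passed it but was at 0 counts in most groups, so only its counts are given.

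All mice were assayed for thyroid RNA. Mutant Braf V600E keeps the MAPK pathway active, and Arid1a, Arid2 and Smarcb1 each encode a part of SWI/SNF, a complex that remodels chromatin. The groups were untreated wild type, untreated Arid1a KO (knockout), and Braf V600E alone or together with Arid1a KO, Arid2 KO or Smarcb1 KO, called Braf, Braf Arid1a KO, Braf Arid2 KO and Braf Smarcb1 KO here. Each of the 4 Braf genotypes was given vehicle or CKI, the labels' name for CH5126766, an inhibitor of MEK, for 8 days, and the mice were killed about 2 h after the last dose. There were 3 libraries a group, but 2 in each Braf Arid2 KO group. The promoter that drives Cre, the strain and the age are not given in the sources used here. The labels carry 1 text on flash-frozen thyroids of wild-type, Arid2 and Smarcb1 mice and another on YFP-positive cells sorted from dissociated glands, and both stand on every sample. Whether a difference between wild type and Braf or Arid1a KO goes with preparation or with genotype cannot be told apart. The same holds between Braf and its Arid2 or Smarcb1 knockouts. Nothing in the labels ties libraries to separate mice, so p-values measure only the spread between these libraries. In RNA of a whole gland or of sorted cells, fewer cells of a type and less RNA per cell cannot be told apart.

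Fibrinogen is the soluble plasma protein that thrombin turns into fibrin. It is assembled from alpha, beta and gamma chains, encoded by Fga, Fgb and Fgg, which lie side by side on the chromosome and are made together, chiefly by hepatocytes. Interleukin-6 acting through STAT3 raises all 3 in the liver during the acute phase response, together with haptoglobin, the scavenger of free haemoglobin encoded by Hp, and alpha-1-acid glycoprotein, a plasma carrier protein encoded by Orm1. Lcn2 encodes lipocalin 2, which binds bacterial siderophores and is made by neutrophils and by inflamed epithelia, and Saa3 encodes a serum amyloid A that mice make mainly outside the liver.

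Depth ran from 23879271 to 34400066 counts per library. Levels are in CPM, a gene's counts relative to the TMM-adjusted total of its library, and a value with ± is a group's mean and SD. Tests are of log2 fold changes, with their standard error (SE), from edgeR's quasi-likelihood test with Benjamini-Hochberg adjustment over the 19016 genes tested, at a threshold of 0.05. The 11 markers of thyroid follicular cells summed to 63830 to 162500 CPM in wild-type libraries and to 628 to 1320 CPM in Braf vehicle libraries. Smarcb1 was at 2.28 to 17.9 CPM in Braf Smarcb1 KO vehicle libraries and 57.0 to 131 CPM in Braf vehicle libraries. Untreated Arid1a KO libraries also held less Smarcb1, 15.1 to 62.5 CPM, than wild type at 74.8 to 152 CPM. A low Smarcb1 level is thus not particular to the Smarcb1 KO label. Counts cover whole genes, including any exon left intact. Under vehicle Arid1a stood at 14.4 ± 2.11 CPM in Braf Arid1a KO and 21.8 ± 9.67 CPM in Braf (n = 3 each). Arid2 stood at 26.5 ± 15.6 CPM in Braf Arid2 KO (n = 2) and 14.5 ± 6.62 CPM in Braf (n = 3) under vehicle. Counts of Arid1a and Arid2 therefore do not check those labels.

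The gamma chain was the only 1 of the 3 chains above 2 CPM in any library, and it was so in the 6 Braf Arid1a KO libraries and in none of the other 22. The starts of the 3 genes are shown here because the chains are known for being made together, and these data hold 1 chain without the others. The windows of 300 bases around each gene start, 5′ to 3′ on the gene's own strand, are from RefSeq with build GRCm38.p6, at chr3:83007474-83007773 on the plus strand for Fgg, chr3:83025903-83026202 on the plus strand for Fga and chr3:83049814-83050113 on the minus strand for Fgb. Capitals mark matches, on either strand, to 4 sets of letters: CTGGGAA, the core of the interleukin-6 response element, TTCNNNGAA for STAT factors, TTNNGCAA for C/EBP factors, and the NF-kappaB consensus.
Fgg: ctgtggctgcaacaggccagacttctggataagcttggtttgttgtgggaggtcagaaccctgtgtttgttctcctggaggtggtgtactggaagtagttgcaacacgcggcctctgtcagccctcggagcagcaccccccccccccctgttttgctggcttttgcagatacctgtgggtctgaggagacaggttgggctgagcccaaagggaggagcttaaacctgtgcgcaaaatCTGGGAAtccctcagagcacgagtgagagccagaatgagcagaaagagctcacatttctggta
Fga: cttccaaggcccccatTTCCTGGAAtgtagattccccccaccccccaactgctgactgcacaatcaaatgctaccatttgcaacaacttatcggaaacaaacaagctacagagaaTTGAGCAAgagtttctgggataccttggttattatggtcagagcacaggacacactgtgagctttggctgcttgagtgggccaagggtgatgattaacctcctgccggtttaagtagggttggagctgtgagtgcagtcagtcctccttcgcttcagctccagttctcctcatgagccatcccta
Fgb: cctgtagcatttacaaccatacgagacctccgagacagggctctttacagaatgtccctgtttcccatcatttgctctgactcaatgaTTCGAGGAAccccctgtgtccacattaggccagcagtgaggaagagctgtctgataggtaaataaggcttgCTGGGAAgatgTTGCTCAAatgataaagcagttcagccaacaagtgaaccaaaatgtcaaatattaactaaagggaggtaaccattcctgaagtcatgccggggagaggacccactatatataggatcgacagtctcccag
The Fgg window held 1 match, CTGGGAA 13 bases before the gene start. The Fga window held 2, for STAT and C/EBP, and the Fgb window 3, for CTGGGAA, STAT and C/EBP. Of 32851 windows of the same length, 11.1% held CTGGGAA, 8.3% the STAT letters, 10.8% the C/EBP letters and 8.46% the NF-kappaB consensus. RefSeq windows matched 5 of the 7 genes, and those of Lcn2 and Saa3 each held 1 match, for C/EBP. A match is a description of the letters and says nothing of whether a factor binds.

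Fgg was at or near 0 in wild type, with 9, 1 and 0 counts in its libraries. Arid1a KO thyroids without mutant Braf held 20, 0 and 35 counts, or 0.738 ± 0.732 CPM against 0.117 ± 0.172 CPM in wild type (n = 3 each). Those groups overlapped. The log2 fold change was 2.60 (SE 1.52), given without a test, and it turned to -0.45 once leukocyte marker level entered the fit. That level, a mean of log2(CPM + 1) over 7 markers, was 8.02 ± 0.41 in Arid1a KO and 5.21 ± 0.60 in wild type. Braf vehicle libraries held 19, 0 and 0 counts.

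In Braf Arid1a KO thyroids under vehicle Fgg stood at 45.0, 72.9 and 105 CPM (1418, 1790 and 3465 counts). The group mean was 74.3 ± 30.1 CPM against 0.323 ± 0.559 CPM in Braf, a log2 fold change of 7.98 (SE 1.52), and every Braf Arid1a KO library lay above every Braf library. This is the difference that chose the gene. It was 14.08 without Braf vehicle library 2, which held all 19 counts of its group.

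The CKI libraries were not in the contrasts named for that choice, but they compare the same Arid1a loss. The members were chosen with earlier results of these data known, so the test that follows is no independent support. With CKI, Fgg stood at 122, 524 and 59.5 CPM in Braf Arid1a KO libraries 2, 4 and 5 and at 0.779, 0.126 and 0.172 CPM in Braf libraries 1, 4 and 5. The lowest Braf Arid1a KO library was far above the highest Braf library, and the Braf Arid1a KO libraries spread 8.81-fold among themselves. The log2 fold change was 9.30 (SE 1.56, adjusted p = 0.0022 by edgeR's quasi-likelihood test). Fgg passed the test without any 1 of the 6 libraries of these groups, with log2 fold changes from 7.93 to 10.57. Within Braf Arid1a KO the CKI group was at 235 ± 252 CPM and overlapped the vehicle group, a log2 fold change of 1.66 (SE 1.09) that is given without a test because the vehicle libraries chose the gene.

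The other knockouts held almost no Fgg. Braf Arid2 KO libraries held 8 and 8 counts under vehicle and 4 and 0 with CKI, and the log2 fold change against Braf under CKI was -2.22 (SE 2.00, adjusted p = 0.527, edgeR). Braf Smarcb1 KO libraries held 2, 1 and 4 counts under vehicle and 67, 15 and 0 with CKI. In that genotype CKI against vehicle gave a log2 fold change of 3.26 (SE 1.57, adjusted p = 0.281, edgeR), and its CKI group overlapped both its vehicle group and Braf with CKI.

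**Figure D1:**
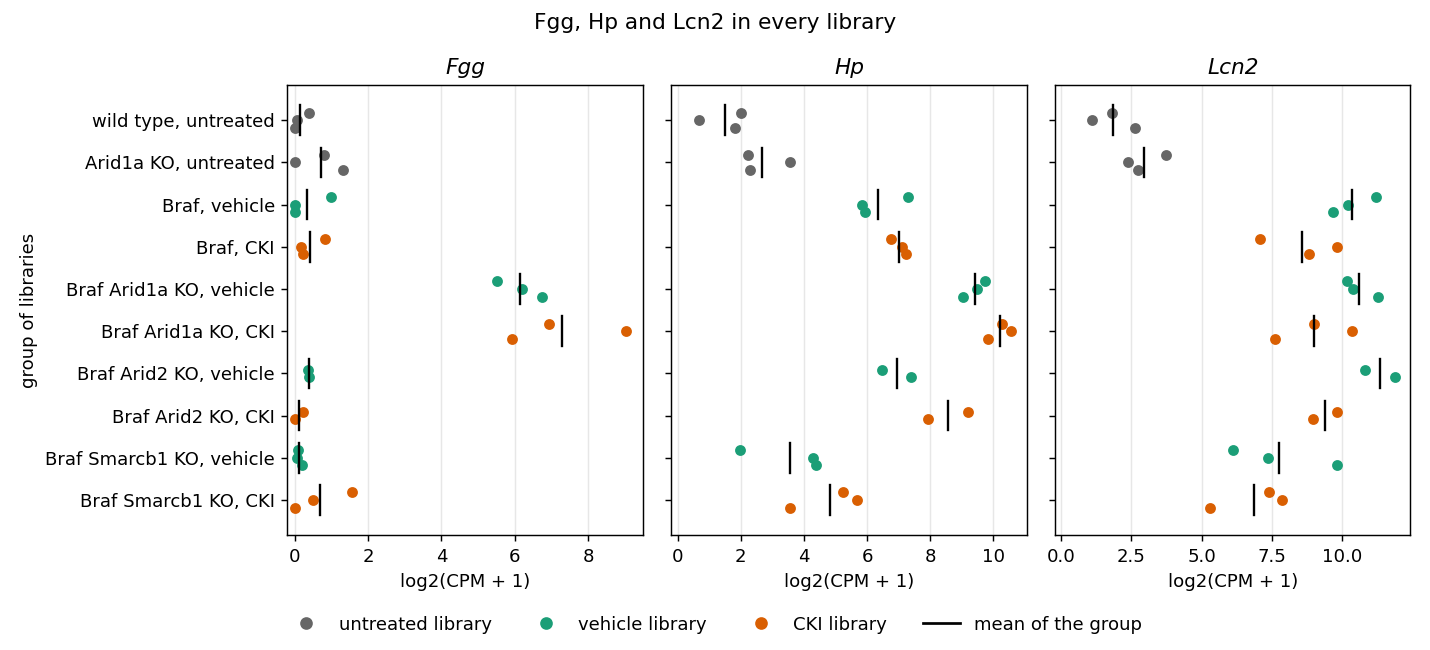
Fgg, Hp and Lcn2 in each of the 28 libraries on a log2(CPM + 1) axis, by group, with points for libraries and a black line at the mean of the plotted log2 values. Fgg is high in the 6 Braf Arid1a KO libraries (45.0 to 524 CPM), Hp runs from 526 to 1503 CPM in the same libraries, with 1 Braf Arid2 KO CKI library (585 CPM) within that range, and Lcn2 is high in every Braf genotype and low in wild type and Arid1a KO.

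The alpha and beta chains did not follow the gamma chain. Fga had counts in 7 of 28 libraries, 49 in all, and Fgb in 6, 119 in all, against 26709 of Fgg. Among the 6 Braf Arid1a KO libraries Fga had 13 counts in vehicle library 3 and 7 and 9 in CKI libraries 4 and 5, and 0 in the others. Fgb had 3 counts in vehicle library 3 and 30 in CKI library 4, and 0 in the others. Those 2 libraries with Fgb also hold the highest Fgg of their groups (105 and 524 CPM).

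Levels of different genes were compared per kilobase of exon, with exon lengths of 2.093 kb for Fgg, 3.01 kb for Fga and 3.81 kb for Fgb from the GENCODE annotation of another build than the counts. Over the 6 Braf Arid1a KO libraries together Fgg was 1313-fold above Fga per kilobase (95% exact binomial interval 914 to 1961) and 1461-fold above Fgb (1040 to 2123). In Braf Smarcb1 KO with CKI Fgb was close to Fgg in counts. There Fgg had 82 counts, Fgb 83 and Fga 9, and Fgg was 1.80-fold above Fgb per kilobase (1.31 to 2.47) and 13.1-fold above Fga (6.58 to 29.7). In untreated Arid1a KO, Fgg was 7.19-fold above Fga (3.72 to 15.2). Of the 83 Fgb counts in Braf Smarcb1 KO with CKI, 62 came from library 1 and 21 from library 4, while library 4 had 0 counts of Fgg. The 22 libraries outside Braf Arid1a KO held 225 counts of Fgg, 20 of Fga and 86 of Fgb in all. These intervals cover counting error only.

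The genes tested beside Fgg gave no call. The order in the RefSeq table is Npy2r, Rbm46, Lrat, Fgg, Fga, Fgb, Plrg1 and Gm10710. Of these Fga and Gm10710 did not pass the filter on low counts and were not tested. Plrg1, a splicing factor gene, stood at 77.8 ± 5.62 CPM in Braf Arid1a KO and 87.0 ± 5.05 CPM in Braf with CKI (log2 fold change -0.16, adjusted p = 0.761, edgeR). Lrat, which esterifies retinol and lies on the other side of Fgg, stood at 19.5 ± 11.5 against 5.80 ± 0.34 CPM (1.75, adjusted p = 0.225, edgeR), and Npy2r, a neuropeptide receptor gene, at 0.723 ± 0.683 against 0.0281 ± 0.0487 CPM (4.63, adjusted p = 0.308, edgeR). Lrat was at 190 CPM in wild type, where Fgg was at 0.117 CPM.

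**Figure D2:**
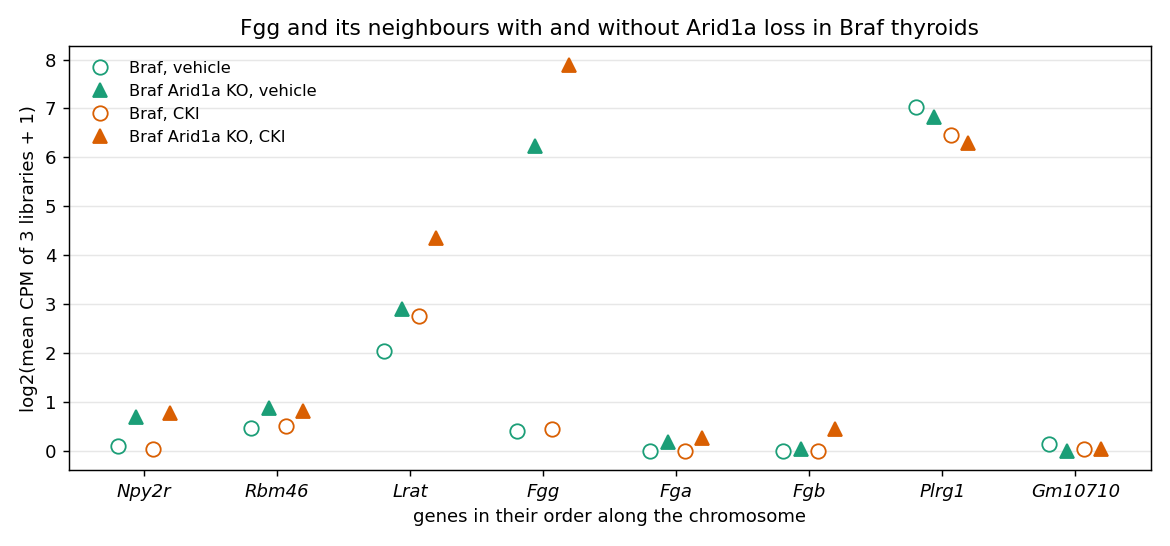
Mean level of Fgg and the genes next to it, in their order along the chromosome, as log2 of the mean CPM of 3 libraries plus 1, for Braf (circles) and Braf Arid1a KO (triangles) under vehicle (green) and CKI (orange). Fgg at 74.3 and 235 CPM in Braf Arid1a KO stands apart from Fga and Fgb next to it, which stay below 1 CPM.

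Haptoglobin was the member most like Fgg in Braf Arid1a KO and yet was present in every Braf genotype. Hp stood at 3.001, 0.588 and 2.50 CPM in wild type and 156, 55.6 and 59.5 CPM in Braf vehicle libraries. The groups did not overlap, and Hp rose 44.4-fold (log2 fold change 5.47, SE 0.78, adjusted p = 3.7e-05, edgeR). In Braf Arid1a KO it reached 856, 712 and 526 CPM under vehicle, 7.71-fold above Braf, a difference that belongs to the contrast that chose Fgg and is given without a test.

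With CKI Hp stood at 1231, 1503 and 907 CPM in Braf Arid1a KO and 106, 136 and 148 CPM in Braf. The lowest of the former was above the highest of the latter, and the difference passed the test (log2 fold change 3.22, SE 0.69, adjusted p = 0.0146, edgeR). It remained between 3.04 and 3.39 without any 1 of the 6 libraries, but the call was lost without Braf CKI library 1 (3.10, adjusted p = 0.0773), 4 (3.25, adjusted p = 0.0539) or 5 (3.33, adjusted p = 0.0607). Under CKI 2 of 5 members tested were called, Fgg and Hp, where 2.30% of all genes tested were called in either direction. Fgg was in the set for its rise with Arid1a loss, so that count says nothing of the members as a set. Saa3 (0.91), Orm1 (0.51) and Lcn2 (0.44) had log2 fold changes that did not pass (adjusted p = 0.847 to 0.86, edgeR).

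In Braf Smarcb1 KO Hp was the lowest of the Braf genotypes. Vehicle libraries held 2.91, 18.6 and 19.98 CPM, all below the lowest Braf vehicle library, and Hp fell (log2 fold change -2.71, SE 0.68, adjusted p = 0.00501, edgeR). With CKI they held 36.7, 49.7 and 10.7 CPM, again all below Braf, and Hp fell there too (-2.01, SE 0.66, adjusted p = 0.038, edgeR). The vehicle call was lost once leukocyte marker level entered the fit (-2.34, adjusted p = 0.0651) and when only those 6 libraries were fitted (-2.66, adjusted p = 0.0536). The CKI call was lost without Braf CKI library 1, 4 or 5 or Braf Smarcb1 KO CKI library 1 or 4, at log2 fold changes of -2.13 to -1.58 (adjusted p = 0.0569 to 0.164).

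In Braf Arid2 KO Hp stood at 87.1 and 168 CPM under vehicle and 585 and 245 CPM with CKI. The vehicle libraries overlapped those of Braf (log2 fold change 0.49, adjusted p = 0.726, edgeR), and both CKI libraries lay above all 3 of Braf, a difference that did not pass (1.67, SE 0.70, adjusted p = 0.167, edgeR) but did when only those 5 libraries were fitted (1.65, adjusted p = 0.0428). By mean level the groups ran from wild type and Arid1a KO (6.07 ± 4.01 CPM) through Braf Smarcb1 KO with vehicle (13.8 ± 9.49) and CKI (32.4 ± 19.9), Braf with vehicle (90.5 ± 57.1), Braf Arid2 KO with vehicle (127 ± 56.9), Braf with CKI (130 ± 21.5), Braf Arid2 KO with CKI (415 ± 241) and Braf Arid1a KO with vehicle (698 ± 165) to Braf Arid1a KO with CKI (1214 ± 298). Neighbours in that order overlapped, except wild type and Arid1a KO, Braf Smarcb1 KO with CKI and Braf with vehicle, Braf with CKI and Braf Arid2 KO with CKI, and the 2 Braf Arid1a KO groups.

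Of the genes next to Hp in the RefSeq table, Zfhx3, Dhx38, Txnl4b, Dhodh, Pkd1l3 and Zfp821 were tested and none was called between Braf Arid1a KO and Braf with CKI (log2 fold changes -0.43 to 0.64, adjusted p = 0.389 to 0.901, edgeR). Per kilobase of exon Hp was the most abundant member in Braf Arid1a KO with CKI, at 756 ± 186 CPM per kilobase, above Lcn2 at 253 ± 216 and Fgg at 112 ± 120. Within that group library 4 was the highest for all 3 genes and library 5 the lowest. Under vehicle library 3 had the highest Fgg and the lowest Hp, and library 1 the lowest Fgg and the highest Hp.

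Lipocalin 2 showed the widest gap between normal and Braf thyroids and none that passed with Arid1a loss. Lcn2 stood at 2.55, 1.14 and 5.22 CPM in wild type and 2320, 1161 and 806 CPM in Braf vehicle libraries, 480-fold higher (log2 fold change 8.91, SE 1.18, adjusted p = 1.78e-05, edgeR). Untreated Arid1a KO libraries held 12.2, 4.15 and 5.73 CPM, near wild type. Under vehicle Braf Arid1a KO held 1150, 1322 and 2433 CPM and overlapped Braf, and Braf Arid2 KO held 1779 and 3761 CPM (log2 fold change against Braf 0.95, SE 0.92, adjusted p = 0.578, edgeR).

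Braf Smarcb1 KO vehicle libraries held 67.7, 163 and 887 CPM of Lcn2. Libraries 1 and 2 were below every Braf library and library 3 was not, and the difference did not pass (log2 fold change -1.94, SE 0.86, adjusted p = 0.0954, edgeR). Without library 3 it was -3.63 and passed (adjusted p = 0.00836), and DESeq2 called it with all libraries (-1.97, adjusted p = 0.0473), as did the fit with the replicate number as a block (-3.04, adjusted p = 0.0241). Under CKI Braf Smarcb1 KO held 144 ± 96.4 CPM and Braf 491 ± 381 CPM (-1.77, SE 0.86, adjusted p = 0.17, edgeR). Around Lcn2 in the RefSeq order, Slc25a25, a mitochondrial carrier gene, was the only neighbour of 8 called between Braf Arid1a KO and Braf under CKI (500 ± 337 against 127 ± 59.4 CPM, log2 fold change 1.98, adjusted p = 0.0223, edgeR).

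Saa3 was scarce and uneven. It had 1 count over the 3 wild-type libraries and 46, 28 and 29 counts in Braf vehicle libraries, a ratio of 123 with a 95% exact counting interval of 21.7 to 4920. The log2 fold change did not pass (6.56, SE 2.47, adjusted p = 0.0638, edgeR), but DESeq2 called it (6.98, adjusted p = 0.00556), as did the fit of only those 6 libraries (6.58, adjusted p = 0.00518) and the fit with the replicate number as a block (8.74, adjusted p = 0.0383). In 3 groups a single library held nearly all counts. Arid1a KO library 1 was at 34 CPM against 0.172 and 0.335, Braf Arid1a KO vehicle library 3 at 7.03 against 0.19 and 0.367, and Braf Smarcb1 KO vehicle library 3 at 7.88 against 0.237 and 0.196. None of the comparisons tested called Saa3 in the fit of all libraries. Saa1 and Saa2, of the same family, were below 1 CPM on average in every group. Whether they share reads with Saa3 was not measured.

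Orm1 was low, and its call in Braf rested on 1 library. It stood at 0.175, 0.0368 and 0.128 CPM in wild type and at 8.71, 1.41 and 0.354 CPM in Braf vehicle libraries (log2 fold change 4.88, SE 1.21, adjusted p = 0.00645, edgeR). Without Braf vehicle library 2 it was 2.89 (adjusted p = 0.0854). Against Braf it fell in Braf Smarcb1 KO under vehicle (0.0593, 0.0654 and 0.99 CPM, log2 fold change -3.24, SE 1.09, adjusted p = 0.0293, edgeR), and these groups overlapped. That call was lost without Braf vehicle library 2 (-1.16, adjusted p = 0.43) and without Braf Smarcb1 KO vehicle library 1 (-2.77, adjusted p = 0.0991) or 2 (-2.80, adjusted p = 0.109). It was also lost once leukocyte level entered the fit (-3.41, adjusted p = 0.0779) and with only those 6 libraries fitted (-3.18, adjusted p = 0.168). Reads of Orm1 cannot be fully told from those of its near copies Orm2 and Orm3.

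**Figure D3:**
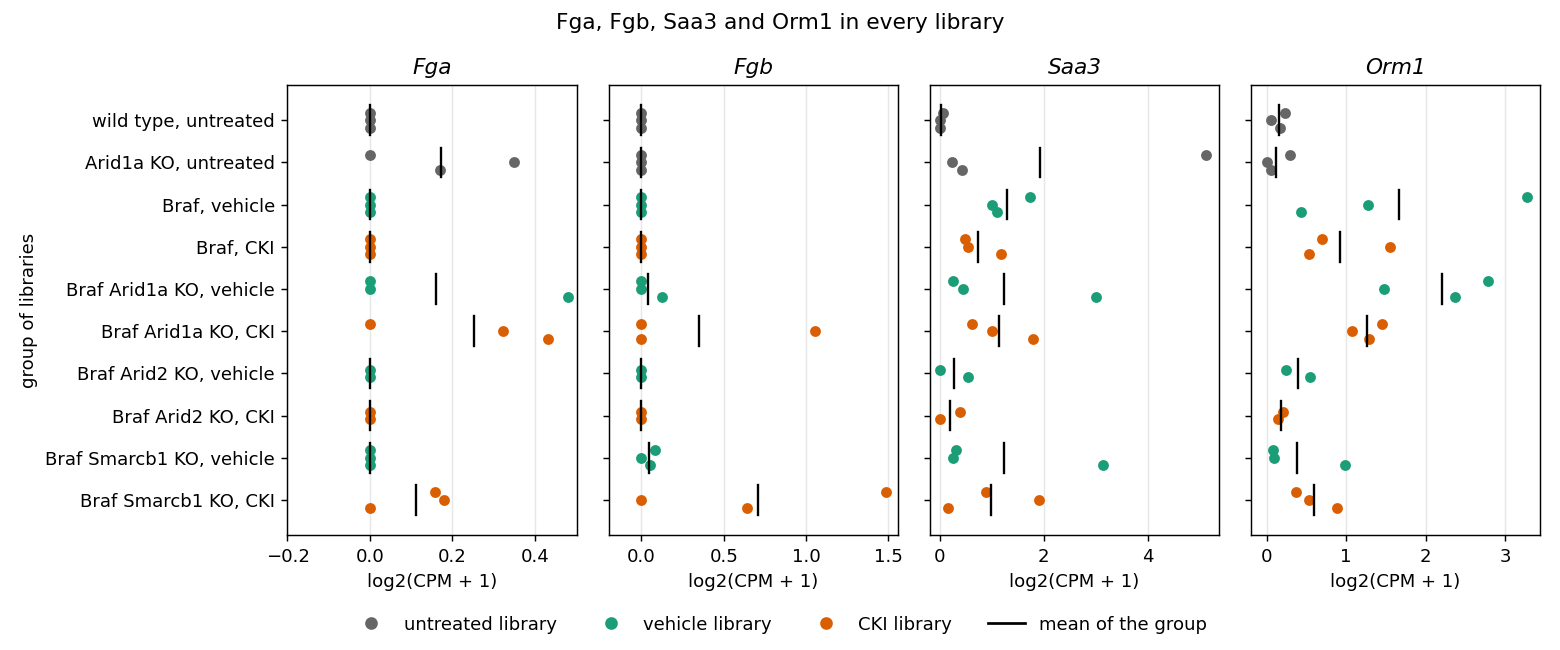
Fga, Fgb, Saa3 and Orm1 in each library on a log2(CPM + 1) axis with its own range for each gene, by group, with points for libraries and a black line at the mean of the plotted log2 values. Fga and Fgb are at 0 in most libraries, and Saa3 is carried by 1 library in Arid1a KO (34 CPM), Braf Arid1a KO with vehicle (7.03 CPM) and Braf Smarcb1 KO with vehicle (7.88 CPM).

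Between Braf vehicle and wild type, 3 of the 4 members tested were called, all higher, where 20% of all genes were called in either direction. Other acute phase genes were higher more often than lower, with 7 rising and 2 falling of 23 (median log2 fold change 1.01, against -0.03 over all genes). Il1rn, the interleukin-1 receptor antagonist, rose to 873 ± 45.4 CPM from the wild-type level of 18.8 ± 5.03 CPM (log2 fold change 5.53, adjusted p = 6.36e-05, edgeR), Cp, the copper carrier ceruloplasmin, to 1137 ± 265 from 142 ± 25.5 CPM (3.0, adjusted p = 9.3e-05), and A2m, a protease inhibitor, to 19.2 ± 19.3 from 0.33 ± 0.181 CPM (5.86, adjusted p = 0.00319). Itih3, which stabilizes hyaluronan, also rose (5.78, adjusted p = 0.000813). Saa1, Saa2, Saa4 and Apcs had group means below 1 CPM in every group.

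In the interleukin-6 family list 6 rose and 1 fell of 20 (median 0.52). The ligands Osm (63.1 ± 35.1 against 5.004 ± 3.82 CPM), Lif (47.5 ± 16.3 against 1.74 ± 1.95 CPM) and Clcf1 (40.1 ± 15.8 against 9.15 ± 2.09 CPM) rose, and the receptor Lifr fell (16.0 ± 12.2 against 91.8 ± 4.91 CPM, log2 fold change -2.52, adjusted p = 0.000819, edgeR). Of the genes that dissolve or regulate fibrin, 6 rose of 9 and none fell (median 2.44), among them Plat, tissue plasminogen activator (405 ± 56.9 against 52.0 ± 14.99 CPM), the urokinase receptor Plaur (662 ± 413 against 85.2 ± 50.6 CPM) and the inhibitor Serpinb2 (64.2 ± 47.0 against 0.336 ± 0.0696 CPM). Among coagulation factors 2 rose and 1 fell of 19 (median -0.11): F7 (36.9 ± 13.5 against 0.472 ± 0.279 CPM) and F10 (22.6 ± 5.02 against 0.873 ± 0.212 CPM) rose and Vwf, the von Willebrand factor, fell. Of fibrinogen-like genes and fibrinogen receptors 3 rose of 9 (median 1.03), the integrin genes Itgav, Itgb2 and Itgax. Of the interleukin-1 and NF-kappaB list 3 rose of 22 (median -0.03), Il1a, Il1b and Ccl20.

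Receptors and partners of the members split. Of 8 genes 2 rose and 2 fell (median -1.04), with Tlr4 (69.6 ± 23.1 against 17.5 ± 3.49 CPM) and Hmox1, the haem oxygenase (555 ± 144 against 202 ± 66.3 CPM), higher, and the endocytic receptor Lrp2 (7.35 ± 4.68 against 41.2 ± 11.1 CPM) and Tlr2 lower. Markers of other cell types moved with this comparison: 3 of 7 leukocyte markers rose, 3 of 9 neutrophil markers rose, 6 of 7 fibroblast markers rose (median 3.50), 6 of 10 lung and airway epithelium markers rose, and 8 of 8 endothelial and 10 of 11 thyroid follicular cell markers fell. Of the remaining lists 2 of 9 macrophage and 1 of 6 adipocyte markers rose, 1 rose and 1 fell of 10 hepatocyte markers, and none was called of 6 skeletal muscle markers, 6 of megakaryocytes and platelets or 13 genes of the stress of dissociation. The 12 neutrophil markers summed to 39.99 to 456 CPM in Braf and 4.12 to 210 CPM in wild-type libraries. Most of that in Braf was Ltf, lactotransferrin, a granule protein gene that epithelia also express (180 ± 213 against 82.3 ± 104 CPM, not called). The neutrophil markers S100a8, Cxcr2 and Mmp8 reached 4.94, 1.44 and 3.47 CPM in Braf against 1429 CPM of Lcn2, and Ly6g and Camp were at 0 counts there. Elane was at 0.0121 CPM. The part of these cells in the levels of Lcn2 and Hp was not tested.

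Hepatocyte markers stayed near 0 where Fgg was high. The 12 listed markers summed to 4.03 to 12.5 CPM in Braf Arid1a KO under vehicle and 2.32 to 12.6 CPM under CKI. In Braf the sums were 5.86 to 9.69 and 3.03 to 9.51 CPM, and 4 of the 12 were at 0 counts in each Braf Arid1a KO group. Albumin, Alb, was at 0 and 0.0357 CPM there, and the liver factor gene Hnf4a was at 0 and 0.103 CPM. The whole list of 10 liver factors was not near 0. It summed to 10.9 to 18.1 CPM in Braf Arid1a KO under vehicle and 7.26 to 18.97 CPM under CKI, with Foxa2 highest (8.20 and 4.44 CPM). In Braf it summed to 9.12 to 11.8 and 10.2 to 15 CPM. Under CKI, 1 of 10 hepatocyte markers tested was called between Braf Arid1a KO and Braf, the lipoprotein gene Apob (3.71 ± 2.34 against 0.0511 ± 0.0449 CPM, log2 fold change 6.12, adjusted p = 0.0361, edgeR).

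With Arid1a loss under CKI pathway genes were called in some lists and not in others, where 2.30% of all genes were called in either direction. A count of 0 in a short list is close to that share. Between Braf Arid1a KO and Braf none of 20 interleukin-6 family genes was called (median -0.32, against 0.01 over all genes), and Stat3 stood at 303 and 438 CPM and Il6 at 105 and 116 CPM. Of 23 other acute phase genes 1 rose and 1 fell (median -0.28). Hpx, which encodes the haem scavenger hemopexin, rose (8.16 ± 6.64 against 0.189 ± 0.0634 CPM, log2 fold change 5.40, adjusted p = 0.0352, edgeR), and Itih3 fell (3.78 ± 1.40 against 76.9 ± 9.35 CPM, -4.35, adjusted p = 0.026). Among 19 coagulation genes F5, coagulation factor V, rose (43.9 ± 25.9 against 2.04 ± 1.60 CPM, 4.42, adjusted p = 0.0154), and of 9 fibrinolysis genes Plaur (41.7 ± 23.3 against 308 ± 107 CPM, -2.88, adjusted p = 0.00351) and S100a10 fell. Il1rap, the interleukin-1 receptor accessory chain, was the only gene called of 22 in its list (136 ± 40.6 against 29.6 ± 6.86 CPM). None of 8 receptors and partners, 9 fibrinogen-like genes and receptors, 7 liver factors, 7 leukocyte markers, 8 endothelial markers or 9 neutrophil markers was called.

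Smarcb1 loss under vehicle went with lower acute phase genes. Of the members 2 of 4 tested were called, Hp and Orm1, both lower, where 28.6% of all genes were called in either direction. Of 23 other acute phase genes 10 fell and none rose (median -1.90, against 0.03 over all genes). Cp fell to 142 ± 68.6 CPM from 1137 ± 265 in Braf (log2 fold change -3.0, adjusted p = 9.27e-05, edgeR), Lbp, the lipopolysaccharide binding protein, to 43.2 ± 47.2 from 1012 ± 205 CPM (-4.55, adjusted p = 0.000347), and complement C3 to 19.2 ± 16.5 from 247 ± 214 CPM (-3.68, adjusted p = 0.00122). In the interleukin-6 family 2 rose and 6 fell of 20 (median -0.48). Il6 itself fell to 14.2 ± 9.29 from 162 ± 39.8 CPM (-3.51, adjusted p = 0.000888), the oncostatin receptor Osmr fell to 43.5 ± 9.68 from 137 ± 28.5 CPM, and Clcf1 rose. Leukocyte markers were lower as well, with 4 of 7 called, and so were 6 of 9 macrophage, 6 of 8 endothelial, 4 of 7 fibroblast and 4 of 10 lung and airway markers. Of 11 thyroid follicular cell markers 6 fell and 1 rose. The part of these cells in the lower acute phase genes was not tested. The mean log2(CPM + 1) of the leukocyte markers was 4.74 ± 0.87 in Braf Smarcb1 KO and 6.82 ± 0.43 in Braf.

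Under CKI the leukocyte markers of these genotypes were close, at 4.19 ± 0.39 and 4.27 ± 0.55, with 1 of 7 called. Other markers were not, with 10 of 11 thyroid follicular cell markers (median -3.15) and 7 of 8 endothelial markers (median -2.66) lower, and their part in the levels that follow was not tested. There 1 of 5 members was called, Hp, where 17.1% of all genes were, and 7 of 23 other acute phase genes fell with none higher (median -0.67). Lbp (48.8 ± 19.6 against 816 ± 436 CPM, log2 fold change -4.06, adjusted p = 0.00122, edgeR), Cp (120 ± 54.0 against 560 ± 141 CPM, -2.22, adjusted p = 0.0017) and the ferrireductase gene Steap4 (-2.65, adjusted p = 0.00504) were among them. Of 20 interleukin-6 family genes 2 rose and 4 fell, with Stat3 at 213 ± 12.8 against 438 ± 30.3 CPM.

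With Arid2 loss no member was called, of 4 tested under vehicle (3.61% of all genes called) and 5 under CKI (1.27%). Orm1 had log2 fold changes of -3.42 under vehicle (SE 1.3, adjusted p = 0.127, edgeR, from 0.182 and 0.462 CPM) and -2.87 with CKI (SE 1.35, adjusted p = 0.213). DESeq2 called the vehicle difference (-3.55, adjusted p = 0.028). Among pathway genes Stat3 (580 ± 78.2 against 208 ± 74.1 CPM, log2 fold change 1.48, adjusted p = 0.0248, edgeR) and Jak1 (479 ± 99.1 against 169 ± 25.6 CPM) rose under vehicle, and no other of 20 in the interleukin-6 family was called.

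The MEK inhibitor called no member in any of the 4 genotypes. Of 4 members tested in Braf and Braf Arid1a KO and 5 in Braf Arid2 KO and Braf Smarcb1 KO, 0 were called, where 13%, 4.51%, 3.37% and 3.85% of all genes were. Lcn2 was lower in mean with CKI in each genotype, by log2 fold changes of -1.54 in Braf (SE 0.85, adjusted p = 0.239), -1.3 in Braf Arid1a KO (SE 0.85, adjusted p = 0.398), -1.99 in Braf Arid2 KO (SE 1.06, adjusted p = 0.284) and -1.37 in Braf Smarcb1 KO (SE 0.85, adjusted p = 0.421, edgeR). Libraries of the groups overlapped in all but Braf Arid2 KO, where the fit of only those 4 libraries called it (-1.96, adjusted p = 0.0458). The direction of Lcn2 turned without Braf Smarcb1 KO vehicle library 3 (0.32) and, once leukocyte level entered the fit, in Braf (0.80) and Braf Arid1a KO (0.03). Hp was higher in mean in each, by 0.52, 0.80, 1.70 and 1.23 in the same order (adjusted p = 0.225 to 0.634, edgeR).

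Set against each other the members moved apart. After its values were seen, the ratio of Hp to Lcn2 per kilobase was taken in each library, as a description with no test. It was 0.11, 0.0783 and 0.121 in Braf vehicle libraries and 1.29, 0.248 and 0.544 with CKI. In Braf Arid1a KO it went from 0.353 to 1.21 under vehicle to 1.90 to 7.65 with CKI, in Braf Arid2 KO from 0.0728 and 0.08 to 1.07 and 0.8, and in Braf Smarcb1 KO from 0.0368 to 0.187 to 0.357 to 0.454. In each of the 4 genotypes every CKI library was above every vehicle library. The ratio was 0.782 to 1.92 in wild type. Leukocyte markers went down with CKI, from 6.82 ± 0.43 to 4.27 ± 0.55 in Braf as mean log2(CPM + 1), and once that level entered the fit Lcn2 in Braf had a log2 fold change of 0.80 with CKI, on the other side of 0 and not called. The part of these cells in the Lcn2 level was not tested further.

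**Figure D4:**
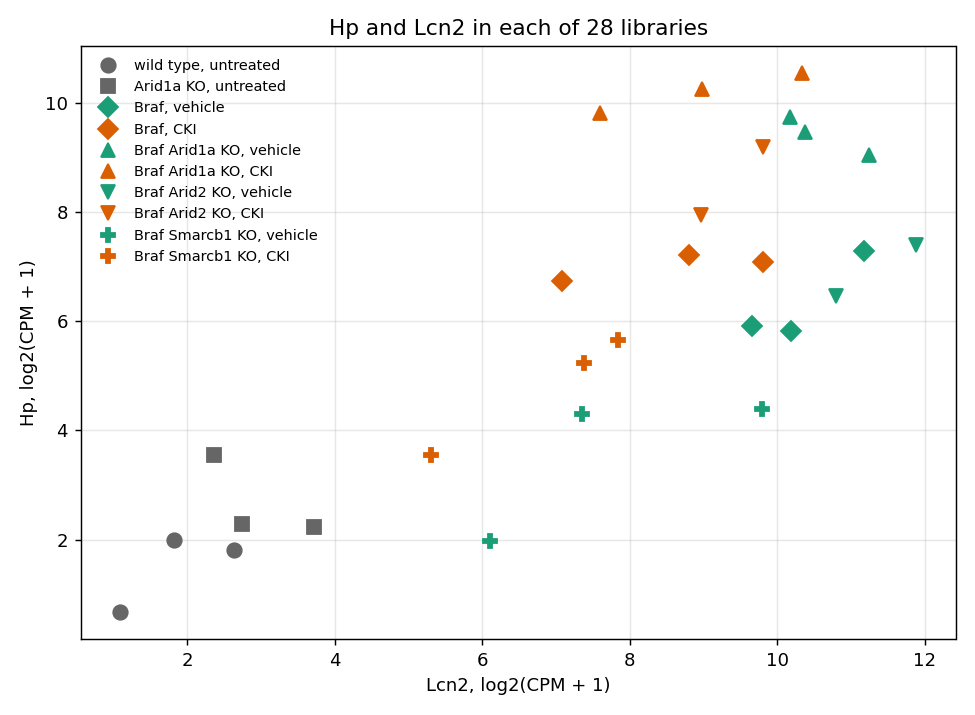
Hp against Lcn2 in each of the 28 libraries, both as log2(CPM + 1), with a symbol for each genotype and a colour for treatment (grey untreated, green vehicle, orange CKI). Within each Braf genotype every CKI library has more Hp relative to Lcn2 than every vehicle library. On the Hp axis alone CKI and vehicle libraries overlap in Braf and Braf Smarcb1 KO, and on the Lcn2 axis in all but Braf Arid2 KO. The Braf Arid1a KO libraries lie high, with 1 Braf Arid2 KO CKI library among them on the Hp axis.

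Some regulators of these genes did pass with CKI in Braf. There 4 of 20 interleukin-6 family genes rose and 1 fell (median 0.10), where 13% of all genes were called. The feedback inhibitor Socs3 rose to 664 ± 244 CPM from 87.9 ± 60.8 with vehicle (log2 fold change 2.92, adjusted p = 0.00816, edgeR), the factor gene Cebpd to 87.3 ± 78.1 from 5.54 ± 2.60 CPM (3.98, adjusted p = 0.0208), Stat3 to 438 ± 30.3 from 208 ± 74.1 CPM, and Lifr rose, while Osm fell from 63.1 ± 35.1 to 12.6 ± 7.39 CPM. Genes of the stress of dissociation rose in the same comparison, 7 of 13 with none lower (median 1.83), as did 10 of 11 thyroid follicular cell markers, and their part in these rises was not tested. In Braf Arid2 KO 2 of 20 fell and none rose. Socs3 stood there at 320 ± 208 CPM under vehicle and 152 ± 87.5 with CKI, given as means and not as a call. Stat3 stood at 580 ± 78.2 and 358 ± 23.7 CPM, likewise as means. The responses of Socs3 and Stat3 differed from those in Braf (Socs3 -3.99, adjusted p = 0.0189, Stat3 -1.77, adjusted p = 0.0269, edgeR). In Braf Arid1a KO Lifr and Jak2 rose and 1 fell, in Braf Smarcb1 KO none of 20 was called, and neither Socs3, Cebpd nor Stat3 passed in either. Osm also fell in Braf Arid1a KO (78.6 ± 49.0 to 15.5 ± 10.4 CPM) and Braf Arid2 KO (35.5 ± 12.8 to 2.45 ± 0.628 CPM). In the interleukin-1 and NF-kappaB list 1 rose and 4 fell of 22 in Braf, with Il1b going from 525 ± 90.7 to 42.3 ± 23.0 CPM and Il1a from 133 ± 69.4 to 8.86 ± 7.497 CPM. All 7 leukocyte markers fell in that comparison, and the part of leukocytes in these falls was not tested. Of 23 other acute phase genes 3 fell and none rose in Braf: Il1rn, Orm3 and Cd14, which is also a macrophage marker.

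Lrp2, an endocytic receptor that takes up lipocalin 2, rose with CKI in 3 of the 4 genotypes. In Braf it went to 90.9 ± 0.889 CPM from 7.35 ± 4.68 (log2 fold change 3.62, adjusted p = 0.000473, edgeR), in Braf Arid1a KO to 114 ± 22.8 from 21.9 ± 8.77 CPM (2.38, adjusted p = 0.0118) and in Braf Smarcb1 KO to 8.49 ± 3.54 from 1.46 ± 1.001 CPM (2.55, adjusted p = 0.00981). Tlr4, a receptor for bacterial lipid and serum amyloid A, fell in the same 3 genotypes. Thyroid follicular cell markers rose in these comparisons, 10 of 11 in Braf, 10 of 11 in Braf Arid1a KO and 7 of 11 in Braf Smarcb1 KO. In Braf Arid2 KO 8 of 11 rose. Leukocyte markers fell, 7 of 7 in Braf, 1 of 7 in Braf Arid1a KO and 0 of 7 in Braf Smarcb1 KO. The part of these cells in the levels of Lrp2 and Tlr4 was not tested.

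Drug responses of the members did not differ by test between a knockout and Braf. Of 4 members tested in each of the 3 differences 0 were called, where 0%, 8.66% and 0.305% of all genes were called for Arid1a, Arid2 and Smarcb1 loss. For Arid1a loss, edgeR called 0 genes in all, with 2018 at an unadjusted p under 0.05, and DESeq2 called 172.

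**Figure D5:**
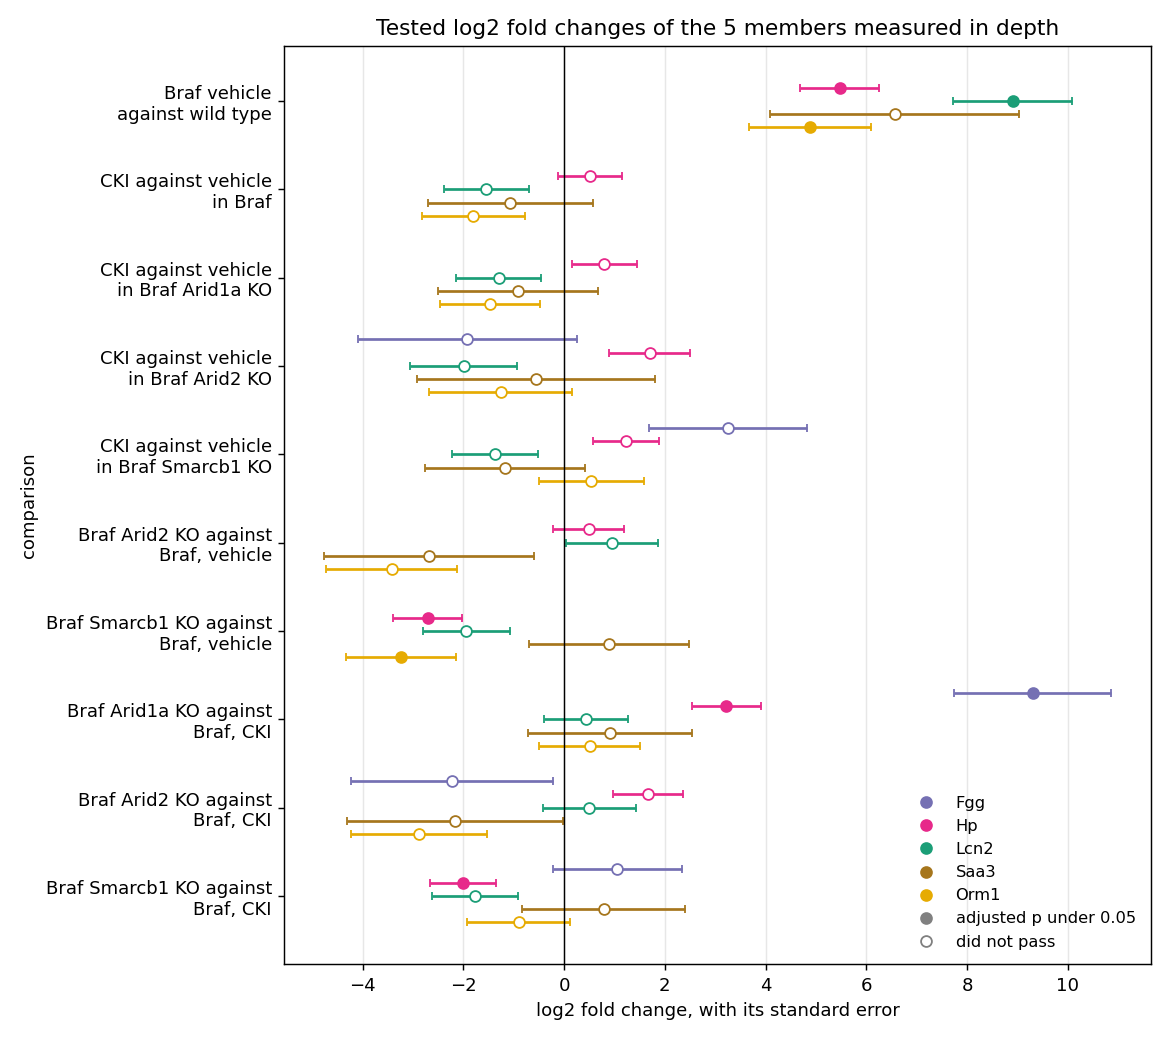
Log2 fold changes with their standard errors for Fgg, Hp, Lcn2, Saa3 and Orm1 in the 10 comparisons of 2 groups that were tested, filled where the adjusted p was under 0.05. Fgg is drawn only where no group compared was in the contrasts named for its choice. Filled points are Lcn2, Hp and Orm1 in Braf against wild type, Fgg and Hp in Braf Arid1a KO against Braf with CKI, Hp and Orm1 in Braf Smarcb1 KO against Braf with vehicle, and Hp there with CKI.

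Across the 28 libraries, Hp and Lcn2 correlated at r = 0.80 on the log2(CPM + 1) scale, and at 0.86 without the 6 Braf Arid1a KO libraries. Fgg and Hp correlated at 0.68 and, without those 6, at 0.02. Libraries share genotype and treatment, so these are descriptions. Among 12711 genes with a mean of at least 1 CPM, those most like Fgg were Gpr128, an adhesion receptor gene (r = 0.94), Crym, a thyroid hormone binding protein gene (0.93), Ros1, a receptor tyrosine kinase gene (0.89), the glutamate transporter gene Slc1a2 (0.89) and the contactin gene Cntn1 (0.88). Gpr128 stood at 28 CPM in Braf Arid1a KO and 0.405 CPM in Braf with CKI, and Crym at 35.3 and 0.413 CPM. Those most like Lcn2 were Chi3l1 (0.97), Sftpb (0.95), Sftpd (0.94), Gzme (0.94) and Ereg (0.92). Sftpb and Sftpd encode surfactant proteins, and they stood at 2847 and 12730 CPM in Braf under vehicle against 1.36 and 1.52 CPM in wild type.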

How the data were processed

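RNA-seq read counts per gene of 28 mouse thyroid libraries were analysed. The counts are whole numbers that the authors deposited in 1 table for the series, with no normalization. The tools used were STAR 2.4, HTSeq 0.6.1 and DESeq2, and the build mm9, per the submitters' processing notes, which give no roles. The TruSeq kit is named in the labels, but not whether strand was kept, so reads of overlapping or antisense genes may be counted together. Genes with near copies may share reads. The labels describe 30 samples; 2 Braf Arid2 KO samples (vehicle replicate 1 and CKI replicate 2) were not analysed here. The labels gave each library its group and replicate number.

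The filter on low counts (filterByExpr) left 19016 of 33924 genes, and libraries were scaled by TMM (factors 0.723 to 1.25). All libraries entered 1 quasi-likelihood fit with a term per group (edgeR 4.0.16, R 4.3.3), and p-values were adjusted by Benjamini-Hochberg. From it came 13 tested comparisons, and 2 with Arid1a loss are given without a test. The members, 8 pathway lists and 12 marker lists of 237 genes in all were chosen with earlier results of these data known. From each list described, up to 4 called genes with the smallest p were named, with a few others given for their role, after their values were seen. No 2 libraries of a group, over 26 pairs, agreed within sampling noise. The test was also run on simulated counts with known changes in the Braf Arid1a KO CKI group only. All other groups shared the same mean per gene there, unlike these data, so that run is no support for the calls of members. Other settings tried were DESeq2 1.42.0, RLE size factors, a fit without the filter, fits restricted to the groups compared, the replicate number as a block, the leukocyte marker level as a covariate, and leaving out each library. Promoter windows and gene order are from RefSeq, and coordinates are of GRCm38.p6, not of the counts' build. Exon lengths are unions of exons in GENCODE vM21.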

Additional observations from a re-analysis of the deposited data

How the results depend on the processing

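Calls of members that changed with a setting are given above, beside each result. The count of members called moved to 0 for Braf Smarcb1 KO against Braf under vehicle with the leukocyte covariate and with only the groups compared. It moved to 1 for Braf Arid2 KO against Braf under vehicle with DESeq2, and, with only the groups compared, to 1 for Braf Arid2 KO against Braf under CKI and 1 for CKI in Braf Arid2 KO. Without each library in turn it was 1 to 2 for Braf Arid1a KO against Braf under CKI, 0 to 1 for Braf Smarcb1 KO against Braf under CKI and 1 to 3 for it under vehicle.

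With the replicate number as a block, the log2 fold change of Fgg between Braf Arid1a KO and Braf under vehicle was 6.45. Members that did not pass turned sign with the block: Saa3 with CKI in Braf Arid1a KO (1.64) and Braf Smarcb1 KO (1.92), Saa3 in Braf Smarcb1 KO against Braf under vehicle (-2.21) and Lcn2 in Braf Arid2 KO against Braf under CKI (-0.58). The block called Saa3 in Braf against wild type (8.74) and Lcn2 in Braf Smarcb1 KO against Braf under vehicle (-3.04, adjusted p = 0.0241) and ended no call. Deviations of same-numbered libraries from their group means correlated at -0.54 to 0.24. With 2 or 3 libraries a group and few numbers shared, this cannot tell whether a number marks a pair or a batch. Genes called in all under the block were 263 for Braf Arid1a KO and 78 for Braf Arid2 KO against Braf under CKI, 177 and 339 for CKI in Braf Arid1a KO and Braf Smarcb1 KO, and 31 for the response difference with Smarcb1 loss.

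With the leukocyte covariate, Fgg in Arid1a KO against wild type was -0.45 and Fgg with CKI in Braf Arid2 KO 0.21. Lcn2 was 0.80 and 0.03 with CKI in Braf and Braf Arid1a KO and -0.27 in Braf Arid1a KO against Braf under CKI. Without each library, Fgg ran from 7.28 to 14.08 in Braf Arid1a KO against Braf under vehicle and from 1.71 to 5.12 in Arid1a KO against wild type. Members that did not pass and turned sign without a library were, as ranges, Lcn2 (-0.49 to 1.20) in Braf Arid1a KO against Braf under CKI, Hp (-0.09 to 1.25) in Braf Arid2 KO against Braf under vehicle, and Fgg (-0.90 to 2.33), Orm1 (-1.41 to 0) and Saa3 (-0.56 to 1.52) in Braf Smarcb1 KO against Braf under CKI. The others were Saa3 (-2.76 to 1.46) there under vehicle, Orm1 (-2.70 to 0.24) with CKI in Braf, Lcn2 (-1.86 to 0.32) with CKI in Braf Smarcb1 KO, and Saa3 with CKI in Braf Arid1a KO (-1.72 to 2.26), Braf Arid2 KO (-5.75 to 5.19) and Braf Smarcb1 KO (-2.53 to 2.48).

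The number of all genes called, 3795 for Braf against wild type, 2466, 858, 640 and 732 for CKI in Braf, Braf Arid1a KO, Braf Arid2 KO and Braf Smarcb1 KO, 686 and 241 for Braf Arid2 KO against Braf under vehicle and CKI, 5433 and 3243 for Braf Smarcb1 KO likewise, 438 for Braf Arid1a KO against Braf under CKI, and 0, 1647 and 58 for the response differences with Arid1a, Arid2 and Smarcb1 loss, moved most. With DESeq2 it was 3917, 1854, 1806 and 1621 for CKI in the 4 genotypes, 2120 and 1941 for Arid2 loss, 1125 for Arid1a loss under CKI, and 172, 2949 and 268 for the response differences. With only the groups compared it was 1367, 527, 1651 and 2 for CKI, 1 and 1209 for Arid2 loss, 2335 for Smarcb1 loss under vehicle, 138 for Arid1a loss under CKI and 5 for the response difference with Smarcb1 loss. With the leukocyte covariate it was 94 and 330 for CKI in Braf and Braf Arid1a KO, 120 and 386 for Arid2 loss, 1918 for Smarcb1 loss under vehicle, and 3 and 10 for the response differences with Arid1a and Smarcb1 loss. Without a filter the response difference with Arid1a loss had 1. Without each library it ran from 2359 to 3809 for Braf against wild type, 726 to 2453, 256 to 756, 65 to 349 and 233 to 923 for CKI, 14 to 230 and 38 to 874 for Arid2 loss under CKI and vehicle, 160 to 566 for Arid1a loss under CKI, 1996 to 2959 for Smarcb1 loss under CKI, and 0 to 275, 0 to 2050 and 19 to 77 for the response differences. RLE size factors moved no count by over 1.5 times. The cause of these shifts was not tested. Where 1 library is left out of a Braf Arid2 KO group, the lone library is assumed to vary like the others.

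Counts of 0 limit what can be said of the chains. A floor of 3 counts over a group of 3 libraries is 0.0274 to 0.0413 CPM, and differences of Fga and Fgb below it were not detectable at this depth. Saa3 and Orm1 had fewer than 50 counts in most libraries.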
